A study of Arabidopsis thaliana with 108 samples.

Results

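The 5 TELOMERE REPEAT BINDING (TRB) genes of Arabidopsis thaliana, out of 27444 protein-coding genes on the nuclear chromosomes, were examined in 46 ChIP-seq peak lists made with antibodies to FLAG-tagged TRB1, TRB2, TRB3 or JMJ14, to Myc-tagged JMJ14, to H3K4me3 and to H3K27me3. The members were chosen by locus, as TRB1 (AT1G49950), TRB2 (AT5G67580), TRB3 (AT3G49850), TRB4 (AT1G17520) and TRB5 (AT1G72740), and a peak was given to a gene when it overlapped the gene body or the 1 kb upstream of it by at least 1 bp. All 5 had at least 1 peak in the FLAG-TRB lists and in the H3K4me3 lists.

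TRB proteins are plant DNA-binding proteins with an N-terminal Myb domain that recognises the telomere repeat, a central domain resembling linker histone H1, and a C-terminal coiled coil. They bind telomeres and also many gene promoters that carry short telomere-like repeats, and they are known partners of Polycomb proteins and of the PEAT complex. H3K4me3 marks the start of transcribed genes, H3K27me3 is deposited by Polycomb Repressive Complex 2, and JMJ14 is an enzyme that removes H3K4me3.

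The series held 108 samples, and the study asked how TRB proteins affect H3K4me3 together with JMJ14. FLAG-TRB plants carried a transgene of the TRB genomic sequence under its own promoter, fused to FLAG, in the mutant of the same gene. FLAG-JMJ14 plants carried a JMJ14 transgene of the same design, and the paper does not state their background. These 14 libraries, 4 for each TRB and 2 for JMJ14, came from floral tissue of plants aged 5 to 6 weeks. Seedlings of 2 to 3 weeks gave H3K4me3 and H3K27me3 lists of wild-type Col-0 and of the trb1/2/3 triple mutant, which carries T-DNA insertions in TRB1, TRB2 and TRB3, with 2 lists for each mark and genotype, and 1 H3K4me3 list of the jmj14-1 mutant. The TRB1-ZF, TRB2-ZF and TRB3-ZF lines carried a TRB fused to FLAG and to ZF108, an artificial zinc finger made for the FWA promoter, in the fwa epiallele background, in which FWA has lost its DNA methylation. Their H3K4me3 lists, with those of fwa without a transgene, numbered 3 for TRB1-ZF, 2 for TRB2-ZF, 2 for TRB3-ZF and 3 for fwa, and their H3K27me3 lists numbered 2 for each line. The labels give floral tissue of 5 to 6 weeks for these lines, and the methods give leaves. The 5 Myc lists came from leaves of 3 to 4 weeks of plants with a Myc-tagged JMJ14 transgene under its own promoter. By the labels, 1 list had this transgene alone, 2 had it in TRB1-ZF, 1 in TRB2-ZF and 1 in TRB3-ZF.

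Every transgene built from genomic DNA adds a copy of a TRB gene that is identical to the reference from its promoter through its coding region. Reads were kept by the authors only where they matched 1 place of the genome without mismatches, so reads from such a copy cannot be told apart from those of the natural gene. The promoters reached to a set distance or to the next annotated gene. For TRB3, the methods also describe a ZF108 fusion of the cDNA under the UBQ10 promoter, and which of both TRB3 constructs gave the ChIP-seq lists is not given in the sources used here. Nor do these name the control against which peaks were called, and untagged FLAG libraries were not used here.

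Several libraries went against their labels at the genes examined here, or shared their content with another library. The library labelled FLAG-TRB2 replicate 4 had a peak of 2060 bp on TRB3, a gene with no peak in the other 3 FLAG-TRB2 lists, while the library labelled FLAG-TRB3 replicate 4 had no peak on TRB3 and the highest fold on TRB2 of all FLAG-TRB3 lists. Both are called by their labels, and the results that rest on them are given with and without them. The H3K27me3 lists of TRB1-ZF replicate 2 and TRB2-ZF replicate 2 were identical and were left out of the comparisons. Of the 5 Myc-JMJ14 lists, 4 were named after another plant line than their label. Replicate 2 of fwa had an H3K4me3 peak on 0 of 6 floral organ identity genes (AG, AP3, PI, SEP1, SEP2 and SEP3), replicate 2 of each TRB-ZF line had one on 1 of 6, and replicates 1 and 3 of all these lines had one on 6 of 6. The Col-0 and jmj14-1 seedling lists had 0 of 6, and trb1/2/3 had 5 and 2 of 6. All 12 H3K27me3 lists had a peak on 6 of 6. FLAG-TRB lists held 3279 to 22509 peaks, and H3K4me3 lists 16030 to 17764. The number of reads behind a list is unknown, so the precision of a single fold cannot be given.

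The members are spread over 3 chromosomes of the TAIR10 assembly. TRB1 spans chr1:18494029-18497318 and TRB4 chr1:6024636-6027565, both on the minus strand, as does TRB5 at chr1:27380260-27382924. TRB2 lies at chr5:26955568-26957774 on the minus strand and TRB3 at chr3:18488993-18490997 on the plus strand. Their reference proteins are similar in length, at 300, 299, 295, 297 and 287 amino acids for TRB1 to TRB5. TRB2 and TRB3 share 69.0% of aligned residues and TRB4 and TRB5 share 63.8%. TRB1 shares 52.2% with TRB2 and 53.1% with TRB3, and every pair of TRB4 or TRB5 with another member lies between 36.3% and 42.9%.

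The neighbours matter because peaks near a start site can belong to either gene. TRB2 stands back to back with FRO1, which encodes a subunit of mitochondrial complex I and starts at -141 from the TRB2 start site. TRB4 overlaps the start of TIM23-1 by 78 bp, and TIM23-2 starts at -396 from the TRB5 start site. Both TIM23 genes encode subunits of the mitochondrial protein import channel and are transcribed away from the TRB gene. TRB1 has no other gene within its 1 kb upstream, since its divergent neighbour AT1G49960 starts at -1321. WIH3 ends at -612 from the TRB3 start site.

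The sequence TTAGGG, the unit shared with the telomere repeat, was searched on both strands of each gene and its 1 kb upstream, together with the longer telobox AAACCCTA, which can overlap it. TTAGGG was found 4 times on TRB1, 2 times on TRB2, 2 times on TRB3, 3 times on TRB4 and 2 times on TRB5. At least 1 TTAGGG was held by 65.9% of all protein-coding genes over the same kind of span, and AAACCCTA by 36.5%. AAACCCTA was found 3 times on TRB1, 1 time each on TRB3, TRB4 and TRB5, and not on TRB2. In the shorter promoter window of 250 bp before to 50 bp after the start site, TTAGGG was found on TRB2, TRB3 and TRB4, against 12.3% of all promoters, and AAACCCTA on TRB3 alone, against 6.22%. The palindromic sequence CTTGNNNNNCAAG, given by the study as bound by the NAC050 and NAC052 proteins, was found on none of the 5 spans and is held by 12.3% of all spans and 0.904% of promoters.

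The stretches below hold the TTAGGG matches that lay under FLAG-TRB peaks in the most lists on each gene. Each is 30 bases of the TAIR10 reference, read 5′ to 3′ on the strand of its gene, with TTAGGG or its reverse complement CCCTAA in capitals.
TRB1 (chr1:18497173-18497202, minus strand): tattcgcattaaCCCTAActttttctgctt
TRB1, match at +417 (chr1:18496884-18496913, minus strand): tgataatctatgTTAGGGtttcctcggaac
TRB1, match at +441 (chr1:18496860-18496889, minus strand): cggaacagggaaTTAGGGttttactattct
TRB2 (chr5:26957887-26957916, minus strand): atctttaatagcCCCTAAactatctgtgag
TRB3 (chr3:18488902-18488931, plus strand): tcataaattaatCCCTAAtagatcaaatgg
TRB4 (chr1:6027596-6027625, minus strand): aggcgaaatgttTTAGGGtatgtaagattt
TRB5 (chr1:27383381-27383410, minus strand): aaaaatctatgtTTAGGGtttttagggaaa
The TRB5 stretch holds a second TTAGGG, in lower case, 9 bases after the first. The first TRB1 match, at +128 from the start site, lay under peaks in 12 of 12 FLAG-TRB lists, with the nearest summit 1 bp away. The matches at +417 and +441 also lay under peaks in 12 lists, with summits 36 and 60 bp away. The TRB4 match at -48 lay under peaks in 8 lists, again with a summit 1 bp away, and the TRB3 match at -79 in 8 lists, with a summit at 18 bp. The pair on TRB5, at -474 and -465, lay under peaks in 9 lists with summits 6 and 2 bp away. The TRB2 match at -130, inside the gap between TRB2 and FRO1, lay under peaks in 11 lists with the nearest summit 79 bp away. A match is a description of the letters and was not tested as a binding site.

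All 5 TRB genes were bound in FLAG-TRB lists, but not equally often. TRB1 had a peak in 12 of 12 lists, TRB2 in 11, TRB5 in 9, and TRB3 and TRB4 in 8 each. The median over all protein-coding genes was 5 of 12 lists, and 32.8% of genes had a peak in 8 or more. Every FLAG-TRB1 list had a peak on every member, whereas the FLAG-TRB3 replicate 1 list, the shortest, had peaks on TRB1 and TRB3 alone.

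**Figure D1:**
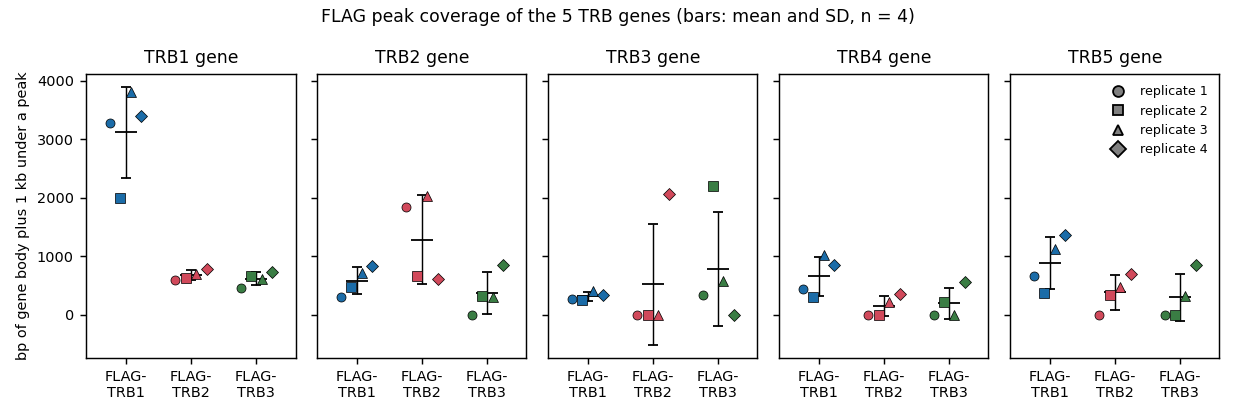
Length of each TRB gene span (gene body plus 1 kb upstream, in bp) under FLAG peaks, for each of 12 FLAG-TRB lists grouped by the tagged protein. Points are single lists and lines show the mean and SD of 4 lists, and the 4 FLAG-TRB1 lists stand at 1997 to 3797 bp on TRB1, above 462 to 776 bp in the other 8.

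The question of whether a tagged transgene raises peaks on its own gene was answered most clearly for TRB1. FLAG-TRB1 replicates 1 to 4 covered 3272, 1997, 3797 and 3389 bp of the TRB1 span. FLAG-TRB2 covered 592, 631, 694 and 776 bp, and FLAG-TRB3 covered 462, 651, 615 and 725 bp. The 4 FLAG-TRB1 lists were all longer than the other 8, with no overlap. The means were 3113.8 ± 777.8 bp (SD, n = 4) and 643.2 ± 95.1 bp (SD, n = 8), and the difference of 2470.5 bp had p = 0.00404 in a two-sided exact permutation test, the smallest p that 4 lists against 8 can give. Of the 16448 genes tested, 7.66% were likewise longer in every FLAG-TRB1 list than in any other list. Without both libraries at odds with their labels the difference on TRB1 was 2506.2 bp (exact permutation p = 0.00952). Most FLAG lists of the same replicate number deviated together, and these tests leave the number out. With the number as a block the exact permutation p was 0.125, the smallest that 4 numbers can give. Nothing in the sources says that the libraries came from separate batches of plants, so p-values here measure the spread between libraries.

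The height of the peak on TRB1 was less uniform than its length. The largest fold enrichment was 7.93, 6.07, 5.42 and 1.77 in FLAG-TRB1 replicates 1 to 4, and 2.86 to 4.34 in the other 8 lists. Among the genes with a peak in its own list, TRB1 stood at percentile 99.9, 99.4, 100 and 7.1 in the FLAG-TRB1 lists. In replicate 3 no gene had a larger fold, whereas in replicate 4 the gene was covered from -572 to +2724 by a single broad peak of fold 1.57, with a further peak of fold 1.77 upstream. Over all lists the percentiles of own and other tags overlapped, with means of 76.6 ± 46.3 (SD, n = 4) and 79.9 ± 18.9 (SD, n = 8) and an exact permutation p = 0.861. Without FLAG-TRB1 replicate 4, singled out here for its value on TRB1, the own-tag percentile was 19.9 points higher.

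The same comparison was fitted across all genes with limma, on log2 of the largest fold per gene, with each list centred on the genes present in every list. TRB1 was 0.28 ± 0.24 (SE) higher with its own tag, with an adjusted p of 0.387, in a contrast in which 33.2% of the 16448 genes passed the threshold of 0.05. Lists of replicates 1 and 2 had median folds of 2.73 to 3.0, against 2.22 to 2.25 in replicates 3 and 4. In replicates 1 and 2 alone the difference was 0.92, in a fit that called 37.7% of genes. This fit leaves out FLAG-TRB1 replicate 4, singled out here for its value on TRB1, so its difference carries no test. In replicates 3 and 4 alone the difference was -0.45 (limma, adjusted p = 0.339), and without FLAG-TRB1 replicate 4 it was 0.70.

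On TRB2 the own-tag lists were longer on average, but the groups overlapped. FLAG-TRB2 replicates 1 to 4 covered 1843, 656, 2022 and 604 bp of the TRB2 span, with folds of 5.61, 5.65, 4.71 and 3.02. FLAG-TRB1 covered 307, 474, 710 and 830 bp, and FLAG-TRB3 covered 0, 324, 303 and 846 bp, with a fold of 4.38 in the library labelled FLAG-TRB3 replicate 4. Replicates 1 and 3 of FLAG-TRB2 stood above all other lists, and its replicates 2 and 4 lay within the range of the others. The difference in covered length was 807.0 bp (1281.2 ± 755.8 against 474.2 ± 298.8, SD, n = 4 and 8), with an exact permutation p = 0.0485. That call was lost on leaving out any 1 of 7 of the 12 libraries, namely FLAG-TRB1 replicates 1 or 2, FLAG-TRB2 replicates 1 or 3, or FLAG-TRB3 replicates 1, 2 or 3 (exact permutation p = 0.0606 to 0.145). It was 1085.9 bp without both libraries at odds with their labels, and 0.00608% of genes, 1 gene, were longer in every FLAG-TRB2 list.

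The percentile of TRB2 was 96.1, 95.5, 97.3 and 74.6 in the FLAG-TRB2 lists and 0 to 96.5 in the others. The mean difference of 31.0 points had an exact permutation p of 0.0889, and with both doubted libraries left out it was 41.7 points. These libraries were doubted for their values on TRB2 and TRB3, so values without them are descriptions and carry no test. In the limma fit TRB2 was 0.57 ± 0.19 (SE) higher with its own tag (adjusted p = 0.152), where 0.432% of genes were called. The difference was 0.89 without both libraries, in a fit that called 0.539% of 15776 genes. It was 1.01 in replicates 1 and 2 alone, which also lack both libraries, in a fit that called 5.2% of genes.

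TRB3 was the member on which the labels and the peaks parted. FLAG-TRB3 replicates 1 to 4 covered 333, 2192, 570 and 0 bp of TRB3. FLAG-TRB2 covered 0, 0, 0 and 2060 bp, and FLAG-TRB1 covered 262, 242, 404 and 334 bp. A long peak was thus present in FLAG-TRB3 replicate 2, with fold 5.56, and in the library labelled FLAG-TRB2 replicate 4, with fold 4.63. The difference of 361.0 bp between own and other tags (773.8 ± 974.0 against 412.8 ± 684.8, SD, n = 4 and 8) had an exact permutation p of 0.347, and no gene (0%) was longer in every FLAG-TRB3 list. Without both doubted libraries it was 854.2 bp. The limma difference was 0.35 ± 0.29 (SE, adjusted p = 0.613, 0.584% of genes called), and 0.84 without both libraries, where 0.152% of genes were called. It was 0.96 in replicates 1 and 2 alone, which also lack both libraries, in a fit that called 1.26% of genes. The 3 contrasts of tags share all of their libraries and are not independent of each other.

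**Figure D2:**
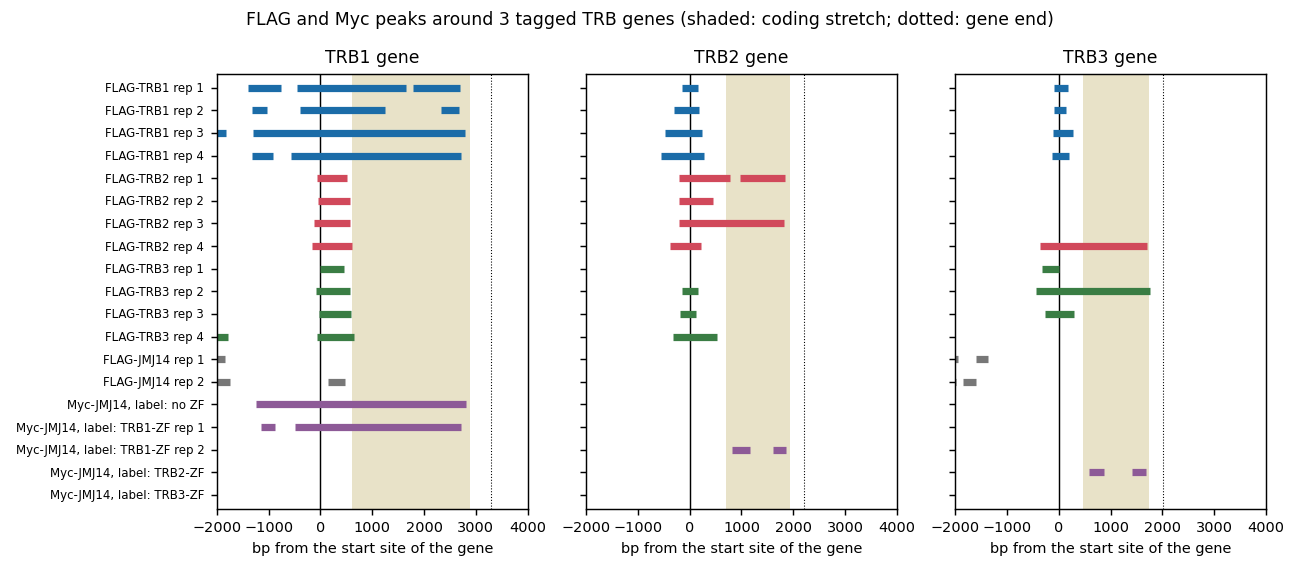
FLAG and Myc peaks on TRB1, TRB2 and TRB3, drawn as bars along the distance from the start site in bp, with the coding stretch shaded. Rows are 12 FLAG-TRB, 2 FLAG-JMJ14 and 5 Myc-JMJ14 lists. Long FLAG-TRB bars on the own-tag lists run through the coding stretch and stop before its end on TRB1 and TRB2. Gaps break these bars in FLAG-TRB1 replicates 1 and 2 and in FLAG-TRB2 replicate 1. FLAG-TRB bars of other tags are short, except that of the library labelled FLAG-TRB2 replicate 4 on TRB3, from -362 to +1697. Myc bars on TRB1 are also long, from -1245 to +2808 and from -485 to +2722.

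The long peaks ran through the coding sequence of the tagged gene. On TRB1 the main FLAG-TRB1 peak began at -455, -395, -1311 and -572 from the start site in replicates 1 to 4. Replicates 1, 2 and 4 had a further, shorter peak upstream that began at -1398, -1327 and -1321. The divergent neighbour AT1G49960 starts at -1321, so these peaks can belong to either gene. The outermost downstream edges lay at +2700, +2682, +2796 and +2724, before the end of the coding sequence at +2879. Replicates 1 and 2 reached there in separate peaks, with gaps from +1653 to +1783 and from +1249 to +2331. Peaks of the other tags on TRB1 lay between -170 and +650. FLAG-TRB1 peaks covered 86.5, 43.8, 96.4 and 93.2% of the stretch from the start to the end of the coding sequence, and no FLAG-TRB list covered a base after it.

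Long peaks on the other tagged genes also ran through the coding sequence. FLAG-TRB2 replicates 1 and 3 covered 76.1 and 90.8% of the TRB2 coding stretch, from -205 and -203 to +1834 and +1818 with the coding end at +1931, and replicates 2 and 4 covered 0%. Replicate 1 did so in separate peaks, from -205 to +772 and from +970 to +1834. On TRB3, FLAG-TRB3 replicate 2 covered 100% of the coding stretch from -433 to +1758, with the coding end at +1738. The library labelled FLAG-TRB2 replicate 4 covered 96.8% of it, from -362 to +1697. The part of reads from the transgene copy in these peaks was not tested.

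JMJ14, the other gene with a transgene in the FLAG libraries, had long peaks on itself in the same way. FLAG-JMJ14 replicates 1 and 2 covered 4971 and 6012 bp of JMJ14 and 76.9 and 99.6% of its coding stretch, against 0 to 647 bp in the 12 FLAG-TRB lists. Over all genes, peaks of these FLAG-JMJ14 lists had median widths of 556 and 524 bp. The share of all genes longer in both than in any FLAG-TRB list was not computed. On the TRB genes, FLAG-JMJ14 had a single peak, of 335 bp and fold 2.18 on TRB1 in replicate 2, from +144 to +478. TRB2 to TRB5 had no FLAG-JMJ14 peak in either list.

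The Myc-JMJ14 lists placed peaks on whichever TRB gene the name of the list pointed to. The list labelled Myc-JMJ14 without a zinc finger line was named for TRB1-ZF and covered 3809 bp of TRB1, from -1245 to +2808, with fold 4.34. The list labelled Myc-JMJ14 in TRB1-ZF replicate 1, also named for TRB1-ZF, covered 3339 bp of TRB1. The library labelled replicate 2 of the same line was named for TRB2-ZF, and it had no TRB1 peak but 579 bp on TRB2, within +824 to +1854. The library labelled as TRB2-ZF was named for TRB3-ZF and had 570 bp on TRB3 alone, in separate peaks at +573 to +871 and +1410 to +1680. The library labelled as TRB3-ZF was named for plants without a zinc finger and had no TRB peak, but 2457 bp on JMJ14. None of the other Myc-JMJ14 lists had a peak on JMJ14, although all came from plants with a JMJ14 transgene. In 5 of 5 lists the TRB genes with a peak were those of the list's name, and in 1 of 5 those of the label.

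Cross binding, the peaks of a tagged TRB on the other TRB genes, was described best on TRB4 and TRB5, which had no transgene in these plants. On TRB4, FLAG-TRB1 covered 437, 301, 1019 and 854 bp, FLAG-TRB2 covered 0, 0, 215 and 346 bp and FLAG-TRB3 covered 0, 213, 0 and 564 bp. The groups overlapped only through replicate 4 of both other tags. TRB4 was 0.69 ± 0.12 (SE) higher with the TRB1 tag in the limma fit (adjusted p = 0.000904). It was the 1 member of 5 called in that contrast, where 33.2% of all genes were called. FLAG-TRB1 replicates 3 and 4 also had peaks past the end of TRB4, whose summits lay at +3235 and +3298 beside the start of AT1G17510 at +3256.

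On TRB5, FLAG-TRB1 covered 664, 371, 1126 and 1353 bp, FLAG-TRB2 covered 0, 339, 471 and 700 bp and FLAG-TRB3 covered 0, 0, 325 and 852 bp. The groups overlapped, and the limma difference for the TRB1 tag was 0.26 ± 0.17 (SE, adjusted p = 0.251). In all 9 lists with a TRB5 peak there was a summit between -455 and -499, upstream of the TRB5 start and nearer to that of TIM23-2 at -396. A separate peak at the TRB5 start was present in FLAG-TRB1 replicate 1, from +1 to +210, and in FLAG-TRB3 replicate 4, from +39 to +360.

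Cross binding on the tagged genes was short in all lists but 1. FLAG-TRB2 and FLAG-TRB3 covered TRB1 in all 8 of their lists, with folds of 2.86 to 4.34 and summits at +91 to +384. FLAG-TRB1 covered TRB2 in 4 of 4 lists with folds of 2.94 to 4.00 and TRB3 in 4 of 4 lists with folds of 1.88 to 2.56. FLAG-TRB3 had a peak on TRB2 in 3 of 4 lists. FLAG-TRB2 had a peak on TRB3 in 1 of 4 lists, the long peak of 2060 bp in the library at odds with its label.

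Genes of the partners and of the telomere machinery were also bound. Of 10 genes for the PEAT complex, whose PWWP, EPCR, ARID and HAM subunits associate with TRB proteins, all had a peak in a FLAG-TRB list, with a median of 9.5 of 12 lists, and 4 had one in all 12. Of all protein-coding genes 76.8% had a peak in any of these lists and 2677 of 27444 in all 12, with a median of 5 lists. In the TRB1-tag contrast 3 of 10 were called higher and 0 lower, with a median difference of 0.28 beside 0.18 over all genes. HAM1, a histone acetyltransferase, was 0.58 ± 0.15 (SE) higher (limma, adjusted p = 0.00842), PWWP2 0.52 ± 0.15 (limma, adjusted p = 0.0144) and ARID2 0.28 ± 0.10 (limma, adjusted p = 0.0353).

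Of 14 genes for telomere proteins, all had a peak in at least 1 list, beside 76.8% of all genes, with a median of 6 lists beside 5. In the TRB1-tag contrast 4 of the 12 tested were called higher and 0 lower, with a median of 0.28. TERT, the catalytic subunit of telomerase, was 0.74 ± 0.13 (SE) higher (limma, adjusted p = 0.0006). KU70, a DNA end-binding protein, was 0.57 ± 0.15 higher (limma, adjusted p = 0.00754), CTC1, a subunit of the telomere capping complex, 0.47 ± 0.15 (limma, adjusted p = 0.0239) and TRFL9, a Myb-type telomere-binding protein, 0.40 ± 0.14 (limma, adjusted p = 0.037). Against the 33.2% of all genes called in this contrast, these shares do not set either list apart.

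H3K4me3 was present on all 5 members in 15 of 15 lists, each of which had a peak on 16638 to 18855 of 27444 protein-coding genes. It covered 1238 to 2101 bp of TRB2, 1459 to 1733 bp of TRB4 and 1149 to 1414 bp of TRB5, where the divergent neighbour shares the stretch, and 421 to 886 bp of TRB1 and 510 to 1082 bp of TRB3. In Col-0 seedlings the median percentile was 89.0 for TRB2, 82.4 for TRB4, 68.0 for TRB5, 47.6 for TRB1 and 23.2 for TRB3. The 2 Col-0 lists put TRB2 at 86.0 and 92.0, TRB4 at 77.1 and 87.7, and TRB5 at 94.8 and 41.3, so TRB2, TRB4 and TRB5 could not be ordered beyond their spread. TRB1, at 55.6 and 39.5, overlapped TRB5, and TRB3, at 24.0 and 22.4, lay below all others in both lists. A peak fold averages over all cells of a tissue, so fewer marked cells and less mark per cell cannot be told apart.

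**Figure D3:**
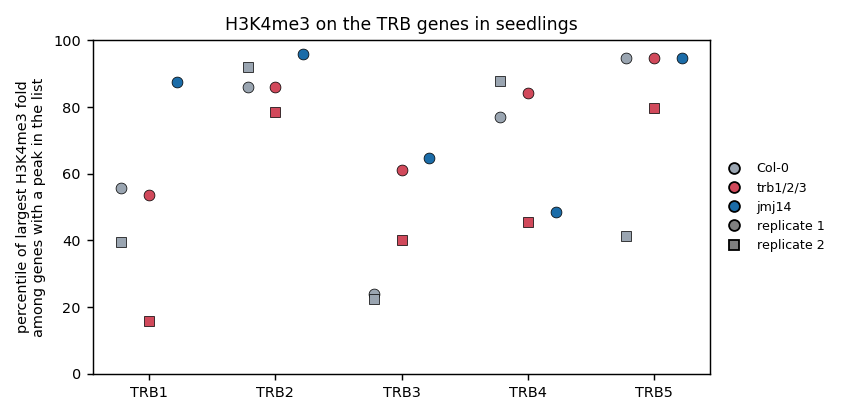
Percentile of each TRB gene by H3K4me3 fold among the genes with a peak in the same list, in seedlings of Col-0 (2 lists), trb1/2/3 (2 lists) and jmj14-1 (1 list). TRB3 stands at 22.4 and 24.0 in Col-0 and at 40.0 and 61.0 in trb1/2/3, and TRB1 stands at 87.6 in jmj14-1 against 39.5 and 55.6 in Col-0, TRB4 at 48.5 against 77.1 and 87.7.

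The trb1/2/3 triple mutant was compared with Col-0 to see whether loss of 3 TRB proteins went with a change of H3K4me3 on the TRB genes themselves. TRB3 had folds of 4.34 and 4.47 in Col-0, 8.06 and 6.87 in trb1/2/3 and 6.39 in jmj14-1. Both mutant lists were higher than both Col-0 lists. Folds ran higher over the whole trb1/2/3 lists, with a median over peaks of 6.98 and 7.07 against 5.23 and 5.58 in Col-0, and after centring the difference on TRB3 was 0.33 ± 0.23 (SE) with an adjusted p of 0.822 by limma. By percentile TRB3 stood above both Col-0 values (24.0 and 22.4) in both trb1/2/3 lists (61.0 and 40.0), as did 22.7% of the 18409 genes tested.

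TRB1 had folds of 5.68 and 5.46 in Col-0, 7.64 and 4.44 in trb1/2/3 and 7.39 in jmj14-1. TRB2 had 6.82 and 8.74 in Col-0, 9.46 and 9.95 in trb1/2/3 and 8.13 in jmj14-1. The TRB1 groups overlapped and the trb1/2/3 folds on TRB2 were higher. By percentile TRB2 stood at 85.95 and 78.58 in trb1/2/3 against 85.96 and 92.01 in Col-0. The nearest values of both groups were almost equal, and the share of all genes lower in both trb1/2/3 lists was not computed. The centred differences on TRB1 and TRB2 were -0.36 ± 0.30 and -0.10 ± 0.21 (SE), with adjusted p of 0.854 and 0.948 by limma. TRB4 had folds of 6.42 and 8.24 in Col-0, 9.34 and 7.30 in trb1/2/3 and 5.80 in jmj14-1, a centred difference of -0.24 ± 0.21 (SE, limma, adjusted p = 0.855). TRB5 had folds of 7.42 and 5.55 in Col-0, 10.35 and 10.06 in trb1/2/3 and 7.96 in jmj14-1. Its trb1/2/3 lists stood above its Col-0 lists by fold but overlapped them by percentile, and the centred difference was 0.24 ± 0.22 (SE, limma, adjusted p = 0.861). The share of all genes with higher folds in every trb1/2/3 list was not computed. The limma fit called 0% of genes, while 1261 genes had an unadjusted p under 0.05. With 2 lists in each group no exact test can reach 0.05. The floral identity genes with an H3K4me3 peak in trb1/2/3 lists, 5 and 2 of 6 against 0 in Col-0, moved with the genotype, and their part in these values was not tested.

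The TRB-ZF lines answered whether a second tagged copy of a TRB gene went with a change of H3K4me3 at that gene. On TRB2 it did. TRB2-ZF replicates 1 and 2 had folds of 5.02 and 2.46 on TRB2, and the 8 lists of the other lines had 9.28 to 14.03. The groups did not overlap, and TRB2 stood at percentile 13.8 and 3.6 in TRB2-ZF but at 79.8 to 97.6 elsewhere. The limma difference was -1.74 ± 0.18 (SE, adjusted p = 0.00747), and with the replicate number as a block, since the numbers pair these lists, it was -1.79 (limma, adjusted p = 0.00486). Against fwa alone it was -1.70 ± 0.21 (SE, limma, adjusted p = 0.0274).

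In this contrast 5 of 18971 genes (0.0264%) were called, all lower, and the same share was called against fwa. The 5 were TRB2, its divergent neighbour FRO1, whose value rests on the same largest peak, ACT2, an actin gene, at -2.29 ± 0.28 (SE, limma, adjusted p = 0.0249), and the adjoining loci AT3G43572 and AT3G43574, at -2.68 ± 0.21 (SE, limma, adjusted p = 0.000865). A percentile lower in every TRB2-ZF list than in any other list was seen for 1.48% of genes. WIH1, the next gene beyond FRO1, was at -1.16 ± 0.25 and DG1, downstream of TRB2, at -0.73 ± 0.17 (SE, limma, adjusted p = 1 for both). ARLA1D and AT5G67610, the genes beyond DG1 and WIH1, were at 0.04 ± 0.11 and 0.08 ± 0.19 (SE). The TRB2 call was lost without TRB2-ZF replicate 2, at -1.37 (limma, adjusted p = 0.0578), and without centring of the lists, at -1.70 (limma, adjusted p = 0.0654).

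**Figure D4:**
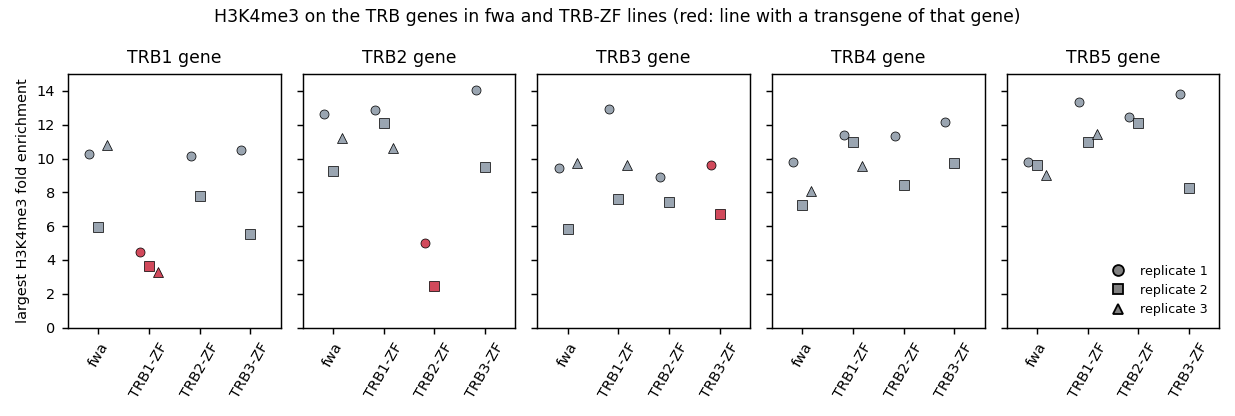
Largest H3K4me3 fold enrichment on each TRB gene in fwa (3 lists), TRB1-ZF (3), TRB2-ZF (2) and TRB3-ZF (2), with marker shape for the replicate number and red for the line that carries a transgene of the gene shown. TRB2-ZF stands at 5.02 and 2.46 on TRB2 and TRB1-ZF at 3.27 to 4.49 on TRB1, below all other lists, and TRB3-ZF lies among the others on TRB3.

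On TRB1 the own line was also lowest, without passing the adjusted threshold. TRB1-ZF replicates 1 to 3 had folds of 4.49, 3.66 and 3.27, and the other 7 lists had 5.55 to 10.83. The groups did not overlap, and within each replicate number the own line was lower, at 4.49 against 10.18 to 10.52, 3.66 against 5.55 to 7.81 and 3.27 against 10.83. The limma difference of -1.19 ± 0.18 (SE) had an unadjusted p of 5.3e-05, the smallest of 18971 genes, an adjusted p of 1, and an adjusted p of 0.252 with the replicate block. No gene (0%) was called in the contrast, 436 genes had an unadjusted p under 0.05, and 0.364% of genes had a percentile lower in every TRB1-ZF list than in any other. The difference from fwa alone was -1.27 ± 0.21 (SE, limma, adjusted p = 0.592). AT1G49940, downstream of TRB1, was at -1.05 ± 0.30 against the other lines (SE, limma, unadjusted p = 0.00496). CLPR1 and AT1G49975, upstream of TRB1, were at -0.38 ± 0.18 each (SE). A peak between TRB1 and AT1G49940 was absent from all TRB1-ZF lists and from fwa replicate 2. In the remaining lists it had folds of 2.26 to 4.33.

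On TRB3 the own line overlapped the others. TRB3-ZF replicates 1 and 2 had folds of 9.64 and 6.70, within the 5.82 to 12.92 of the other 8 lists. The limma difference was -0.08 ± 0.15 (SE, adjusted p = 1), and 1 of 18971 genes (0.00527%), AT4G07965, was called in that contrast. TRB4 and TRB5, which have no transgene in these lines, had differences of -0.05 to 0.22 and -0.04 to 0.18 in the contrasts of a line with the mean of the others, none called. Whether the effect at TRB2 or TRB1 differs from that at TRB3 was not tested.

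The marked stretch was not shorter where the fold was lower. H3K4me3 covered 717, 886 and 770 bp of TRB1 in TRB1-ZF against 574 to 720 bp in the other lists, and 0.184% of genes were longer in every TRB1-ZF list than in any other. On TRB2 it covered 1608 and 2101 bp in TRB2-ZF against 1553 to 1830 bp, and 0.253% of genes were longer in every TRB2-ZF list. On TRB3 it covered 716 and 1082 bp in TRB3-ZF against 674 to 813 bp. These groups overlapped in all 3 cases, TRB1 by 3 bp. Within the coding stretch the own-line share was higher on TRB2, at 24.0 and 54.5% against 7.6 to 12.6%. It overlapped the other lines on TRB1, at 3.8, 9.3 and 5.1% against 0.5 to 3.9%, and on TRB3, at 18.9 and 50.4% against 18.2 to 26.0%. The share of all genes with such a difference was not computed. Replicate 2 lists lacked peaks on floral identity genes that replicate 1 and 3 lists had, and the difference on TRB2 was present within both replicate numbers, at 5.02 against 12.64 to 14.03 and 2.46 against 9.28 to 12.1. Extra copies of the gene in these lines, in the ChIP library or in its control, were not tested.

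H3K27me3 was almost absent from the TRB genes. Of 20 pairs of a member and a seedling list, 1 had a peak, which covered 18 bp of TRB1 with fold 2.74 in Col-0 replicate 1. Of 30 pairs in fwa and the TRB-ZF lines, without the identical lists, none had a peak. Each of these seedling and TRB-ZF lists had a peak on 7365 to 9412 of 27444 protein-coding genes, so most genes lacked the mark too. No test was run on this mark.

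The gene spans whose percentile moved most like TRB2, TRB4 and TRB5 over 45 lists were those of the divergent neighbours, which share peaks with them, and the other similar genes are not neighbours of a member. For TRB2 the most similar was FRO1 (Pearson's r = 1.0), followed by SPDS1, a spermidine synthase gene (r = 0.88), and AT1G01100 (r = 0.873). For TRB4 it was TIM23-1 (r = 1.0), then MYB4R1 (r = 0.962) and GSTL3 (r = 0.955), and for TRB5 it was TIM23-2 (r = 0.99), then AT3G62360 and AT3G62370 (r = 0.976 each). TRB1 was most like AT1G30690 (r = 0.761), AT3G53890 (r = 0.754) and AT1G14315 (r = 0.744). TRB3 was most like MFP2, a fatty acid oxidation gene (r = 0.779), AT5G44063 (r = 0.759) and AT5G21100 (r = 0.758). Among the members TRB4 and TRB5 were most alike (r = 0.853) and TRB1 and TRB3 least (r = 0.202). The lists share antibodies, tissues and list lengths, so these values describe the lists only.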

How the data were processed

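The members and gene lists were chosen with earlier results of these data known. Named genes were, by rule, the 5 members, JMJ14, per member the 3 genes of highest correlation, and up to 4 genes of each list. AT3G43572, AT3G43574, ACT2, AT4G07965 and the neighbours of the members fall outside this rule and were chosen after their values were seen. Per the labels, the authors' tools included Trim Galore, Bowtie2 2.1.0, SAMtools 1.9 and MACS2 2.1.1 with the TAIR10 build, and the methods state unique mapping without mismatches and removal of sites that gave peaks in more than 1 Col-0 library. The deposited fold enrichment (ratio over local background, not scaled between libraries) was the value analysed. The deposited -log10 q served for a stricter threshold of 10, the deposited summit position for distances, and the deposited score and -log10 p were not used. The 20 bisulfite tables were not used. Gene positions and sequences were taken from TAIR10.1 of RefSeq, whose chromosomes held all peaks, and protein lengths and identities were computed from its coding sequences. Fits used limma 3.58.1 in R 4.3.3 with Benjamini-Hochberg adjustment over all genes tested, and a gene without a peak in a list was set to the lowest value of that list. Exact permutation tests used scipy 1.17.1, and alignments Biopython 1.88. The fits and tests were also tested on simulated data. In the TRB-ZF experiment, all 13 pairs of lists with the same number had correlated deviations (r = 0.43 to 0.72), so the numbers pair these lists. Depth is unknown, since the files hold no read counts.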

Additional observations from a re-analysis of the deposited data

Results flagged for a closer look

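Dixon's test for a library far from the others of its group was run on 30 groups of 4 FLAG-TRB lists, over the covered length and the percentile of each gene, and chance alone marks about 1 in 20 groups. It marked 4 values. TRB1 stood at percentile 7.1 in FLAG-TRB1 replicate 4, against 99.4 to 100 in the other 3 FLAG-TRB1 lists. TRB2 stood at percentile 74.6 in the library labelled FLAG-TRB2 replicate 4, against 95.5 to 97.3 in the others. TRB3 had 2060 bp under peaks and percentile 97.3 in the same library, and no peak in the other 3 FLAG-TRB2 lists. These values come from 2 libraries, and their cause was not tested.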

How the results depend on the processing

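Of 409 alternative values of tested results, 359 kept their direction and their side of the threshold. For covered length on the own gene, TRB1 kept its direction under all 17 alternatives run (1302.2 to 2842.8 bp, exact p 0.00404 to 0.125), and its call was lost with the replicate block alone (2470.5 bp, p = 0.125, the smallest a block of 4 can give). TRB2 lost its call at -log10 q of at least 10 (707.5 bp), with the block (807.0 bp, exact p = 0.25) and without both doubted libraries (1085.9 bp), and ranged from 560.1 to 1032.8 bp when each library was left out in turn, with the call lost in 7 of 12 cases (exact p up to 0.145). TRB3 ranged from -111.8 to 618.9 bp when each library was left out, with its lowest value without FLAG-TRB3 replicate 2. The percentile difference of TRB1 turned from -3.3 to 19.0 at -log10 q of at least 10 and to 1.8 without both doubted libraries, and ranged from -11.1 to 19.9 over single libraries left out, highest without FLAG-TRB1 replicate 4. That of TRB2 was 41.7 without both and ranged from 22.5 to 36.5, with p under the threshold without FLAG-TRB2 replicate 4 (36.5) or FLAG-TRB3 replicate 4 (36.3). These libraries were singled out for their values on these genes, so such calls carry no support. That of TRB3 ranged from -10.9 to 21.9.

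For the log2 fold on the own gene by limma, replicates 1 and 2 alone gave 0.92 on TRB1, 1.01 on TRB2 and 0.96 on TRB3. These fits leave out the libraries singled out for their values on these genes, so calls in them carry no support. Replicates 3 and 4 alone turned TRB1 (-0.45) and TRB3 (-0.23). TRB1 was called on log2 covered length (2.25), in a fit that called 791 of 16448 genes. The median difference over all genes in that fit was 2.09, near the value of TRB1. TRB2 had a log2 fold difference of 0.89 without both doubted libraries. Leaving out single libraries gave 0.07 to 0.70 for TRB1, 0.47 to 0.78 for TRB2 and 0.03 to 0.65 for TRB3. Deviations of FLAG lists with the same number correlated at r = -0.03 to 0.34, over 0.1 in 11 of 12 pairs, so the numbers pair most of these lists. With the replicate block, adjusted p was 0.336, 0.0913 and 0.498 by limma. The number of genes called rose from 71 to 698 for the TRB2 tag and from 96 to 348 for the TRB3 tag. The TRB4 difference with the TRB1 tag kept its call with single libraries left out (0.62 to 0.72) and lost it on log2 covered length (5.05, adjusted p = 0.205).

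For trb1/2/3 minus Col-0, without centring the median difference over all genes moved by 0.42 and TRB1, TRB2 and TRB4 turned to 0.06, 0.33 and 0.18. TRB4 turned to 0.06 on covered length. Leaving out single lists gave -0.76 to 0.04 for TRB1, -0.23 to 0.04 for TRB2 and -0.01 to 0.50 for TRB5. The block changed no call of a member and raised the calls over all genes from 0 to 263. For the TRB-ZF lines, TRB2 ranged from -2.10 to -1.37 against the other lines and from -2.06 to -1.33 against fwa (adjusted p 0.00477 to 0.16) over single lists left out, and its call was lost without centring (-1.70 and -1.64) and, against fwa, with genes without a peak left missing (-1.70). TRB3 ranged from -0.17 to 0.01 and, against fwa, from -0.12 to 0.07. The block changed no other call. Limma fits of H3K27me3 were not run, since no member had a peak in enough lists. Leaving out both doubted libraries together was chosen after seeing the data. Where no cause is named, the cause was not tested.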
